A study of Mus musculus with 12 samples.

Results

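The genes of the autophagy machinery were followed in RNA-seq of mouse bone marrow neutrophils kept with or without granulocyte colony-stimulating factor (G-CSF). They were chosen by name, as every gene symbol made of Atg and a digit together with a fixed set of named partners, and 41 of the 13935 rows of the deposited table met this rule. The rule itself uses no measured value, but it was set with earlier results of these data known. Neutrophils were flow sorted as CD45+CD11b+Ly6G+ cells from femur bone marrow after lysis of red cells, and were then held for 8 h in RPMI medium with 10% FBS, with G-CSF at 10 ng/ml or without it.

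Of the 4 groups of 3 libraries, the first came from Socs3fl/fl neutrophils without G-CSF and is called floxed untreated. The second came from LysMcre Socs3fl/fl neutrophils without G-CSF and is called LysMcre-labelled untreated. The third, floxed G-CSF, and the fourth, LysMcre-labelled G-CSF, are the same genotypes with G-CSF. Both genotypes carry floxed Socs3, and Cre is driven from the Lyz2 (LysM) locus, which is active in neutrophils and also in monocytes and macrophages. In the LysMcre-labelled G-CSF group all 3 titles say both G-CSF and untreated, and the description and conditions labels, which say G-CSF, placed the libraries. No label gives an age or says whether replicates were separate mice, so the p-values reflect no more than how far these samples scatter, and that scatter may be technical.

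Autophagy encloses cytoplasm in a double membrane, the autophagosome, and delivers it to the lysosome. The ULK kinase complex starts it, a class III phosphatidylinositol 3-kinase complex marks the site with the lipid PI3P, and ATG9, ATG2, WIPI proteins and VMP1 supply and shape the membrane. Ubiquitin-like conjugation by ATG7, ATG3, ATG10, ATG5, ATG12 and ATG16L1 attaches LC3 and GABARAP proteins to that membrane, ATG4 proteases trim and release them, and cargo receptors bind both LC3 and the material to be degraded. In neutrophils autophagy is known for its part in granulocyte differentiation and in degranulation, and SOCS3 is known as the protein that restrains G-CSF receptor signalling.

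Values are the authors' normalized counts, gene counts divided by 1 factor per library, and are listed for replicates 1, 2 and 3. The gene targeted by Cre was read first. Socs3 stood at 224.9, 201.3 and 247.5 normalized counts in floxed untreated and at 313.4, 311.2 and 252.5 in LysMcre-labelled untreated libraries. With G-CSF it stood at 21391, 18533 and 18588 in floxed and at 35984, 37668 and 38354 in LysMcre-labelled libraries. Socs3 RNA was therefore not lower under the LysMcre label in either condition; the table gives 1 value per gene and does not show which exons the reads came from, so it does not check the deletion. Lyz2, whose locus carries Cre, stood between 219608 and 226031 in floxed untreated and between 5646 and 6602 in LysMcre-labelled untreated libraries. Libraries held 19495754 to 26472118 reads, and a count of 3 reads equals 2.57 to 3.54 normalized counts. All 41 genes passed the filter on low values (a mean of at least 10 over all libraries), the lowest being Atg10, with a mean of 28.7. All 10 neutrophil markers passed the filter, with summed levels per library between 1486686 and 1932762.

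Differences are given as log2 of value plus 1, from a limma fit of all 4 groups, with the standard error (SE). P-values are adjusted over the 13915 genes tested, and a gene is called changed below 0.05. A bulk library cannot tell fewer cells of a type from less RNA per cell.

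In resting neutrophils Gabarap, which encodes a membrane-bound LC3 relative, had the highest level of the machinery per length of exon. Its level in floxed untreated libraries was 4624 ± 161 normalized counts per kb (SD, n = 3). Sqstm1, the p62 cargo receptor, followed at 1992 ± 54.7 per kb, and Map1lc3b (1014 ± 25.8) and Atg3 (1007 ± 66.8), the enzyme that passes LC3 to lipid, did not differ beyond their spread. Ulk1, the initiating kinase, was next at 910.2 ± 13.4 per kb and Atg101, its partner, at 861 ± 25.2. Becn1, the scaffold of the lipid kinase, led its complex at 518 ± 9.25, and Atg2a, a lipid carrier, led the membrane genes at 755 ± 10.7. Atg4d was highest of the LC3 proteases at 206.5 ± 11.3 and Epg5 of the fusion factors at 107 ± 5.54. At the low end were Atg14 at 35.5 ± 2.64 and Atg10 at 20.3 ± 2.46. With the longest transcript as the length, the first 4 genes kept their ranks, while Ulk1 moved from rank 5 to 7 and Tax1bp1, a cargo receptor, from 9 to 5. That length also turned the order within proteases, where Atg4b (291.8 per kb) stood above Atg4d (252.1), and within fusion factors, where Tecpr1 (204.6) stood above Epg5 (111.4).

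**Figure D1:**
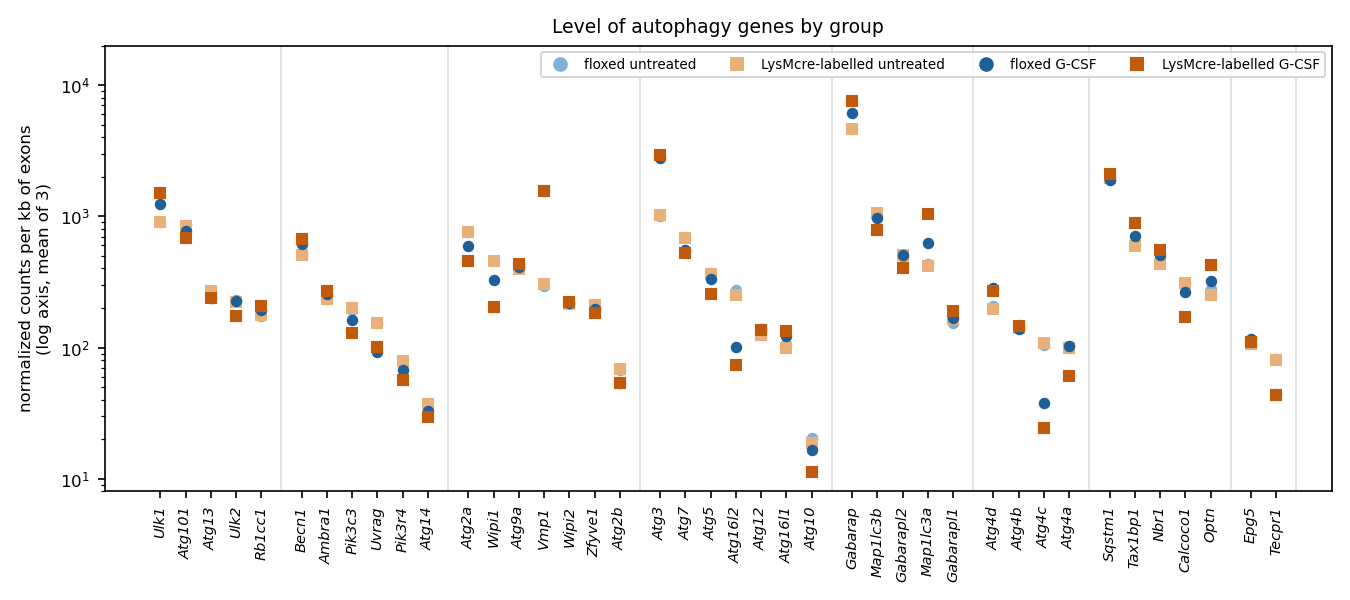
Mean level of each gene (normalized counts per kb of exons, log axis, n = 3) in the 4 groups, by role and sorted within a role by the floxed untreated level; points that coincide hide each other. Gabarap is highest in every group, from 4582 to 7575 per kb, and Vmp1 and Atg3 separate most widely upward between untreated and G-CSF groups.

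Without G-CSF no member of the machinery was called between the genotypes. Differences ran from -0.14 for Optn to 0.12 for Pik3r4, with a median absolute size of 0.04 against 0.07 over all genes tested. Limma called 0 of 41 members here, where 0.115% of all genes were called (16 genes), and 0 members had an unadjusted p below 0.05. EdgeR and DESeq2 also called 0. The 95% intervals were widest for Atg10, from -0.67 to 0.42. Those of Optn ran from -0.35 to 0.06 and of Vmp1 from -0.19 to 0.27.

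With G-CSF members of the machinery were called in both directions, as were genes in general. In floxed libraries the genes for Vmp1, Atg3, Map1lc3a, Atg4d, Ulk1 and Gabarap rose and those for Atg4c, Atg16l2, Tecpr1, Uvrag and Wipi1 fell. In all, 21 of 41 members were called, 11 higher and 10 lower, and 20 were not. This share of 51.2% stands beside 48.8% called among all genes tested (24.1% higher and 24.6% lower). Calls of 2-fold or more numbered 4 among the members, and 14.2% of all genes passed that mark. The median difference of the members was -0.06, against 0 over all genes, and their median absolute difference was 0.20 against 0.33.

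In LysMcre-labelled libraries 35 of 41 members were called with G-CSF, 14 higher and 21 lower. This is 85.4%, beside 62.6% of all genes tested (31.1% higher and 31.6% lower). Calls of 2-fold or more numbered 6, and 24.7% of all genes passed that mark. The median difference was -0.19 against 0, and the median absolute difference 0.43 against 0.48. All 21 members called in floxed libraries were called in the same direction here, as were 6113 of the 6784 genes called in floxed libraries overall (90.1%). The difference was larger in absolute size in LysMcre-labelled libraries for 34 of 41 members (82.9%) and for 10163 of 13915 genes (73%). The split of calls depended on scaling. Among member calls 52.4% were higher in floxed and 40% in LysMcre-labelled libraries. Under scaling to equal library totals, under which the median of all genes was -0.09 and -0.26 in place of 0, these shares were 30.8% and 25.7%.

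Markers of other cell types and of neutrophil maturation moved with G-CSF too, and their part in the G-CSF and genotype results was not tested. Of 10 neutrophil markers 4 rose and 6 fell in floxed and 4 rose and 5 fell in LysMcre-labelled libraries; the granule genes Camp (-1.60 and -2.53) and Ltf (-1.74 and -2.56) fell in floxed and LysMcre-labelled libraries, while Cxcr2 rose by 1.74 and 2.17. Of 5 monocyte and macrophage markers 2 were called higher and 2 lower in floxed libraries (median 0.24). In LysMcre-labelled libraries 1 was called higher and 2 lower (median -0.02). The summed level of these 5 markers was 20066 to 20516 and 19191 to 21175 in the untreated groups. It was 14797 to 17465 in floxed G-CSF and 11639 to 13933 in LysMcre-labelled G-CSF libraries. The summed level of 4 progenitor markers was 2805 to 3009, 2770 to 2991, 4188 to 4455 and 7279 to 7671 in the same order. The mean of Kit, which is among them, went from 783.1 and 800.1 to 2933 and 6166. Of the 4 markers 1 was called higher and 1 lower in each genotype, with medians of -0.13 and -0.14. B cell markers summed to 7907 to 11166, 10781 to 17080, 6099 to 9540 and 9420 to 16353. Stroma and endothelium markers summed to 704.5 to 840.4, 801.4 to 920.1, 756.5 to 791.8 and 1327 to 1506. Of these stroma and endothelium markers 1 was called higher and 1 lower in each genotype. T and NK cell markers summed to 360.6 to 402.9, 445.9 to 486.5, 191.7 to 243.4 and 180.4 to 220.6. Cd3d fell (-2.23 and -2.98), while 1 of these 5 markers was called higher in LysMcre-labelled libraries. Eosinophil, basophil and mast cell markers summed to 1448 to 2154, 1916 to 2803, 2709 to 3459 and 2842 to 2940. Of these 7 markers 2 were called higher in floxed libraries (median 0.17) and 1 in LysMcre-labelled libraries (median -0.14). In both genotypes 0 were called lower. Siglecf, which is among them, rose 3.42-fold and 3.06-fold. Erythroid, dendritic cell and platelet markers summed to at most 644.9 in any library. No marker in these lists was called between genotypes without G-CSF.

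**Figure D2:**
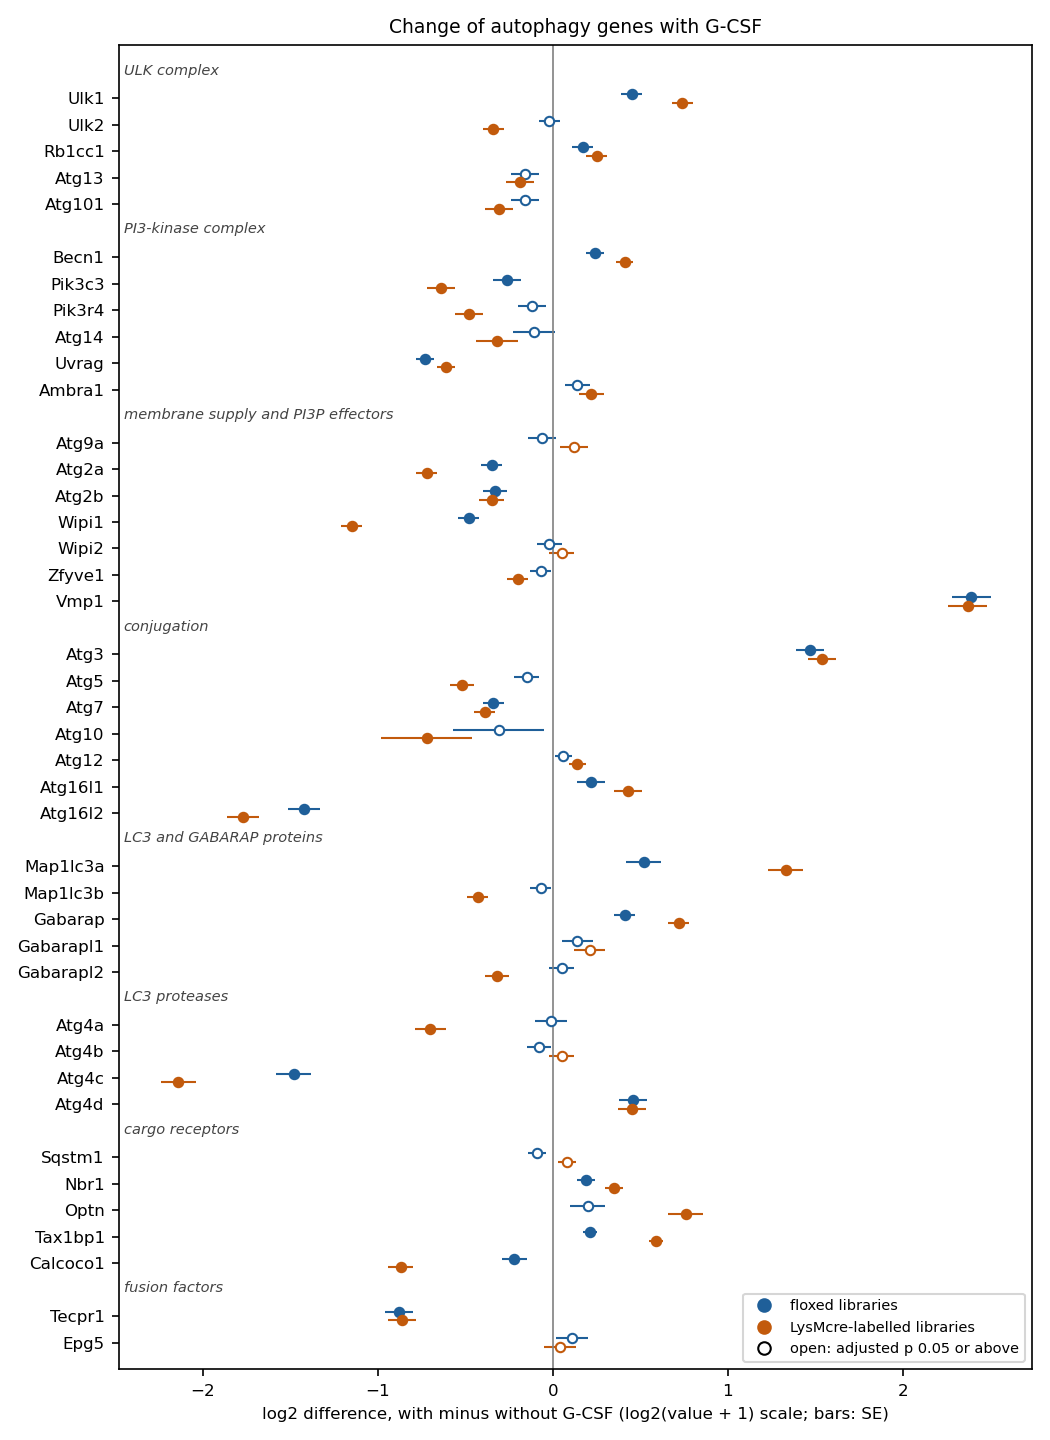
Difference with G-CSF (log2 scale, horizontal axis; bars are SE) for each gene in floxed and LysMcre-labelled libraries, by role; filled points have adjusted p below 0.05. Vmp1 and Atg3 lie furthest to the right at 2.39 and 1.47 in floxed libraries, and Atg4c and Atg16l2 furthest to the left.

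Vmp1 and Atg3 had the largest rises of the machinery, and their promoters are shown because they rose in both genotypes. Vmp1 encodes a membrane protein of the endoplasmic reticulum needed for autophagosome formation and lies at chr11:86583865-86683836 on the minus strand (mm10, GENCODE M21). Atg3 encodes the E2-like enzyme of LC3 lipidation and lies at chr16:45158785-45188538 on the plus strand. The stretches run from 250 to 51 bases before the RefSeq start site (GRCm38.p6), at chr11:86683887-86684086 for Vmp1 and chr16:45158579-45158778 for Atg3. Capitals mark matches to 4 motifs searched on both strands.
Vmp1: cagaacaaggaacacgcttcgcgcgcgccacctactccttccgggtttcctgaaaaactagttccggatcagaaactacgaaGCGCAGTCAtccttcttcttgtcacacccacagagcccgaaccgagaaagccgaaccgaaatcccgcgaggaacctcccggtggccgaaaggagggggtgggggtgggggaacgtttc
Atg3: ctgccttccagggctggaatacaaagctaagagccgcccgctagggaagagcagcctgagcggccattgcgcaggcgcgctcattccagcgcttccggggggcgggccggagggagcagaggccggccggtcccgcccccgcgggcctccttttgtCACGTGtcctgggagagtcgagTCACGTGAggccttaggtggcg
The Atg3 stretch held CACGTG, the E-box core, at both -94 to -89 and -71 to -66 from the start site. The second of these lies within TCACGTGA, the palindrome bound by TFEB-family factors, at -72 to -65. The Vmp1 stretch held TGACNNNGC, a core of the antioxidant response element, on the opposite strand at -168 to -160. RefSeq windows of 300 bases were found for 34 of 41 members. For each member only the window nearest the GENCODE start was used, while the shares over all genes count every window of a gene. CACGTG was in 4 of the 34 (11.8%: Atg3, Atg5, Atg7 and Atg14), against 7.2% of 32851 windows of all genes. The start sites of the Atg7 and Atg14 windows lie 27999 and 2215 bases from the GENCODE start. TCACGTGA was in 1 (2.9% against 1.0%), TGACNNNGC in 4 (11.8% against 12.4%) and TTCNNNGAA, a STAT motif, in 3 (8.8% against 8.3%; Gabarap, Gabarapl1 and Wipi1). The windows of Atg4c and Atg16l2, the genes that fell most, held none of the 4. A match is a description of these letters and was not tested for binding.

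Among the membrane supply genes Vmp1 stood at 1121, 1177 and 1101 in floxed untreated and at 1389, 1217 and 928.5 in LysMcre-labelled untreated libraries. After G-CSF its values were 6211, 5633 and 6055 in floxed and 5707, 5828 and 6517 in LysMcre-labelled libraries. All 6 G-CSF libraries lay far above all 6 untreated ones, and the genotypes overlapped within each condition. The rise was 2.39 (SE 0.11, adjusted p = 6.86e-11) in floxed and 2.37 (SE 0.11, adjusted p = 3.01e-11) in LysMcre-labelled libraries, about 5.26-fold and 5.17-fold. The difference between these rises was -0.03, with a 95% interval from -0.35 to 0.30. The annotated exons of Vmp1 include the 92 bases of Mir21a, the miR-21 hairpin, at chr11:86584067-86584158 on the same strand, which make up 2.4% of their length.

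Wipi1, a PI3P-binding protein at chr11:109573331-109611967, moved the other way and by genotype. It stood at 2112, 1910 and 1983 in floxed untreated, 1922, 1975 and 2106 in LysMcre-labelled untreated, 1530, 1422 and 1351 in floxed G-CSF, and 950.0, 857.4 and 888.9 in LysMcre-labelled G-CSF libraries. The 3 levels, untreated, floxed G-CSF and LysMcre-labelled G-CSF, did not overlap. It fell by 0.48 on the log2 scale (SE 0.06, adjusted p = 1.39e-05) in floxed and fell by 1.15 (SE 0.06, adjusted p = 3.35e-10) in LysMcre-labelled libraries. Its relative Wipi2 was not called in either (-0.02 and 0.05), though with equal totals it was called lower in LysMcre-labelled libraries (-0.21, adjusted p = 0.00339). Atg2a, a lipid transfer protein at chr19:6241668-6262335, stood at 5855, 5715 and 5859 in floxed untreated and 5597, 6016 and 5781 in LysMcre-labelled untreated libraries. The G-CSF values were 5125, 4402 and 4226 in floxed and 3455, 3578 and 3516 in LysMcre-labelled libraries. It fell in both genotypes (-0.35 and -0.72). Atg2b fell (-0.33 and -0.35), Zfyve1, a marker of the membrane platform, fell in LysMcre-labelled libraries (-0.20, adjusted p = 0.00771), and Atg9a, the vesicle scramblase, was called in neither (-0.06 and 0.12).

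In the conjugation group Atg3 stood at 3330, 3264 and 2936 in floxed untreated and at 3292, 3516 and 2803 in LysMcre-labelled untreated libraries. After G-CSF it reached 9090, 9174 and 8213 in floxed and 9118, 9004 and 9689 in LysMcre-labelled libraries. The genotypes overlapped in both conditions, and all 6 G-CSF libraries stood above all 6 untreated ones. It rose by 1.47 (SE 0.08, adjusted p = 5e-10) in floxed and by 1.54 (SE 0.08, adjusted p = 1.21e-10) in LysMcre-labelled libraries, 2.78-fold and 2.91-fold. Atg7, the E1-like enzyme that acts before Atg3, fell (-0.34 and -0.39). Atg5, which joins ATG12, stood at 935.8, 858.3 and 803.7, then 836.1, 863.9 and 878.3 without G-CSF, and at 757.2, 818.6 and 765.5, then 638.0, 589.7 and 572.2 with it, in floxed and then LysMcre-labelled libraries. The LysMcre-labelled G-CSF libraries lay below all others. Atg5 fell by 0.52 there (adjusted p = 7.65e-06), and in floxed libraries its difference was -0.15 (adjusted p = 0.0901). Atg12 rose by 0.14 and Atg10 fell by 0.72 in LysMcre-labelled libraries, and neither was called in floxed libraries (0.06 and -0.31). Atg12 lost its call without LysMcre-labelled untreated replicate 1 or LysMcre-labelled G-CSF replicate 2 (0.13, largest adjusted p = 0.0877), and with equal totals it was called in the opposite direction (-0.12, adjusted p = 0.0434). Atg10 lost its call without LysMcre-labelled untreated replicate 2 or LysMcre-labelled G-CSF replicate 3 (-0.61 and -0.51).

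The ATG16L relatives changed in opposite directions. Atg16l2, at chr7:101263034-101302251, stood at 2402, 2321 and 2195 in floxed untreated and 2079, 2286 and 1994 in LysMcre-labelled untreated libraries. With G-CSF it stood at 920.8, 788.9 and 873.7 in floxed and at 521.2, 692.3 and 654.9 in LysMcre-labelled libraries. No G-CSF library reached an untreated one, and the LysMcre-labelled G-CSF libraries were below the floxed ones. It fell by 1.42 on the log2 scale (SE 0.09, adjusted p = 6.1e-09) and fell by 1.77 (SE 0.09, adjusted p = 1.97e-10). Atg16l1, which places the conjugation complex on the membrane, rose by 0.22 (SE 0.08, adjusted p = 0.0323) and by 0.43 (SE 0.08, adjusted p = 0.000229). Its call in floxed libraries was lost without floxed untreated replicate 2 or 3 or floxed G-CSF replicate 1 or 3, with values of 0.15 to 0.23. With equal totals neither rise of Atg16l1 was called (0.13 and 0.17).

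Of the LC3 and GABARAP genes, Map1lc3a rose most. It lies at chr2:155276297-155278073 and stood at 529.7, 487.4 and 515.7 in floxed untreated and 438.5, 463.3 and 572.9 in LysMcre-labelled untreated libraries. Under G-CSF its values were 770.2, 791.5 and 648.7 in floxed and 1267, 1172 and 1238 in LysMcre-labelled libraries. The untreated groups overlapped, and the LysMcre-labelled G-CSF libraries stood above every other. The rise was 0.52 (SE 0.10, adjusted p = 0.000327) in floxed and 1.33 (SE 0.10, adjusted p = 8.58e-09) in LysMcre-labelled libraries. Gabarap, at chr11:69991143-69994951, stood at 8384, 8328 and 8867 in floxed untreated, 8203, 8452 and 8690 in LysMcre-labelled untreated, 11136, 12461 and 10463 in floxed G-CSF, and 14415, 13377 and 14110 in LysMcre-labelled G-CSF libraries. The untreated groups overlapped and both G-CSF groups stood above them. It rose by 0.41 (SE 0.06) and by 0.72 (SE 0.06).

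Map1lc3b, the most studied LC3 gene, did not follow Map1lc3a. It ranged from 7428 to 8327 in the 6 untreated libraries, from 6709 to 7653 in floxed G-CSF and from 5783 to 6014 in LysMcre-labelled G-CSF libraries. It fell in LysMcre-labelled libraries by 0.43 (adjusted p = 6.76e-06), and in floxed libraries the difference was -0.07 (adjusted p = 0.334). Gabarapl2 fell by 0.32 in LysMcre-labelled libraries and was not called in floxed ones (0.05). Gabarapl1 was called in neither (0.14 and 0.21, adjusted p = 0.244 and 0.0593).

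The ATG4 proteases diverged. Atg4c, at chr4:99193934-99259787, stood at 334.7, 387.2 and 335.0 in floxed untreated and 371.2, 347.3 and 371.4 in LysMcre-labelled untreated libraries. G-CSF libraries had 123.5, 127.0 and 126.2 in floxed and 77.4, 89.6 and 78.4 in LysMcre-labelled libraries. The untreated genotypes overlapped, and with G-CSF the LysMcre-labelled libraries were all below the floxed ones. It fell by 1.48 on the log2 scale (SE 0.10, adjusted p = 5.32e-09) and fell by 2.14 (SE 0.10, adjusted p = 3.01e-11), 2.79-fold and 4.41-fold. Atg4d rose by 0.46 (SE 0.08) and 0.45 (SE 0.08). It had stood at 1484, 1428 and 1590, then 1433, 1400 and 1482 without G-CSF, and at 2293, 2045 and 1856, then 1821, 1973 and 2105 with it, so that the genotypes overlapped in both conditions. Atg4a, on the X chromosome at chrX:140956907-141164270, stood at 249.4, 263.0 and 306.8, then 251.3, 256.2 and 282.3 without G-CSF, and at 264.3, 261.8 and 286.2, then 163.0, 159.2 and 163.2 with it, in floxed and then LysMcre-labelled libraries. Only its LysMcre-labelled G-CSF libraries stood apart from the others. It fell there by 0.70 (SE 0.09, adjusted p = 9.82e-06), and in floxed libraries the difference was -0.01, with a 95% interval from -0.21 to 0.19. Atg4b was called in neither (-0.08 and 0.05), though with equal totals it was called lower in LysMcre-labelled libraries (-0.21, adjusted p = 0.00566).

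In the ULK complex Ulk1 rose and Ulk2 did not. Ulk1, at chr5:110784488-110810097, stood at 5964, 5805 and 5947 in floxed untreated and 5733, 6109 and 5644 in LysMcre-labelled untreated libraries. With G-CSF it stood at 8831, 7928 and 7436 in floxed and at 9666, 9741 and 9704 in LysMcre-labelled libraries. The 3 levels did not overlap. The rise was 0.45 (SE 0.06, adjusted p = 1.39e-05) and 0.74 (SE 0.06, adjusted p = 2.9e-08). Ulk2 fell in LysMcre-labelled libraries by 0.34 (adjusted p = 0.000169), with a difference of -0.02 in floxed ones. Rb1cc1, the FIP200 scaffold, rose by 0.17 and 0.25. The first of these was lost without floxed untreated replicate 1 or 3 or floxed G-CSF replicate 2 or 3 (0.12 to 0.16), and with equal totals the values were 0.07 and -0.02. Atg101 fell by 0.31 in LysMcre-labelled libraries. Atg13 was called there at the threshold (-0.19, adjusted p = 0.0491, groups overlapping), and leaving out any of 8 single libraries ended that call, with values of -0.20 to -0.12.

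In the lipid kinase complex the catalytic subunit and the scaffold changed in opposite directions. Becn1 stood at 3603, 3650 and 3732 in floxed untreated and 3575, 3592 and 3552 in LysMcre-labelled untreated libraries. In G-CSF libraries it was at 4464, 4466 and 4071 in floxed and at 4685, 4639 and 4928 in LysMcre-labelled libraries. It rose by 0.24 (SE 0.05, adjusted p = 0.000823) and 0.41 (SE 0.05, adjusted p = 3.08e-06). The exons of Cntd1 on the opposite strand overlap 43.9% of the Becn1 exon length, and whether counting used strand is unknown here. The same limit holds for Gabarapl1, Atg4d, Uvrag and Sqstm1, which share 28.3%, 19.3%, 17.6% and 17.3% of their exon length with another gene. Atg9a shares 31.8% with Gm29253 on the same strand, which counting by strand would not separate. Pik3c3, the kinase VPS34, fell (-0.26 and -0.64), and the first of these was lost without floxed G-CSF replicate 3 (-0.25, adjusted p = 0.0542). Pik3r4, its regulatory subunit, fell by 0.48 in LysMcre-labelled libraries (-0.12 in floxed). Uvrag, which directs the complex to later steps, stood at 1332, 1421 and 1407, then 1431, 1347 and 1379 without G-CSF, and at 848.2, 864.1 and 800.3, then 894.6, 927.0 and 892.2 with it. All G-CSF libraries lay below all untreated ones. It fell by 0.73 (SE 0.05, adjusted p = 2.41e-08) and fell by 0.61 (SE 0.05, adjusted p = 8.53e-08). Ambra1, a positive regulator of Becn1, rose by 0.22 and Atg14 fell by 0.32 in LysMcre-labelled libraries. Ambra1 lost its call without LysMcre-labelled G-CSF replicate 2 or 3 (0.17 to 0.19) and turned to -0.04 with equal totals. Atg14 lost its call without any of 4 LysMcre-labelled libraries, untreated replicates 2 and 3 and G-CSF replicates 1 and 3 (-0.34 to -0.26).

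Among cargo receptors Optn, Tax1bp1 and Nbr1 rose with G-CSF in LysMcre-labelled libraries and Calcoco1 fell. Optn stood at 1048, 957.7 and 1126 in floxed untreated, 927.6, 892.2 and 1009 in LysMcre-labelled untreated, 1259, 1130 and 1202 in floxed G-CSF, and 1355, 1610 and 1859 in LysMcre-labelled G-CSF libraries. The last group was highest, with the widest spread. It rose there by 0.76 (SE 0.10, adjusted p = 5.67e-06), and in floxed libraries the difference was 0.20 (adjusted p = 0.107). Tax1bp1 stood at 5989, 6162 and 6052, then 5947, 5985 and 5925 without G-CSF, and at 6979, 7115 and 6987, then 9102, 8688 and 9052 with it, in floxed and then LysMcre-labelled libraries. It rose by 0.21 (SE 0.04) and 0.59 (SE 0.04), and only the second of these was called with quantile normalization, which gave 0.09 for the first. Nbr1 rose by 0.19 and 0.35, and with equal totals neither was called (0.10 and 0.09).

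Calcoco1, a receptor of the same family as Tax1bp1, stood at 1721, 1713 and 1838 in floxed untreated, 1685, 1862 and 1794 in LysMcre-labelled untreated, 1524, 1551 and 1459 in floxed G-CSF, and 1092, 928.2 and 898.6 in LysMcre-labelled G-CSF libraries. The untreated groups overlapped and the G-CSF groups did not. It fell by 0.22 (SE 0.07, adjusted p = 0.0192) and fell by 0.87 (SE 0.07, adjusted p = 3e-08); the first was lost without floxed untreated replicate 3 or floxed G-CSF replicate 3 (-0.19 and -0.18). Sqstm1 stood at 6761, 6820 and 6477, then 6756, 6646 and 6465 without G-CSF, and at 6536, 6249 and 6115, then 7327, 6817 and 6920 with it, in floxed and then LysMcre-labelled libraries. It was called in neither genotype with G-CSF (-0.09 and 0.08), but in LysMcre-labelled libraries it was called lower with equal totals (-0.18, adjusted p = 0.00566) and with quantile normalization (-0.23, adjusted p = 0.00145).

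Of the fusion factors Tecpr1, a tether of autophagosomes to lysosomes, stood at 982.7, 1041 and 1111 in floxed untreated and 927.6, 1024 and 1104 in LysMcre-labelled untreated libraries. Its G-CSF values were 538.4, 563.0 and 596.0 in floxed and 509.7, 557.9 and 612.0 in LysMcre-labelled libraries. The genotypes overlapped in both conditions. It fell by 0.88 (SE 0.08, adjusted p = 2.95e-07) and fell by 0.86 (SE 0.08, adjusted p = 2.1e-07). Epg5, a RAB7 effector, stood at 1083, 1017 and 1127, then 1056, 1013 and 1155 without G-CSF, and at 1336, 1002 and 1168, then 1177, 1074 and 1061 with it. Its groups overlapped, and it was not called (0.11 and 0.04), though with equal totals it was called lower in LysMcre-labelled libraries (-0.22, adjusted p = 0.0384).

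**Figure D3:**
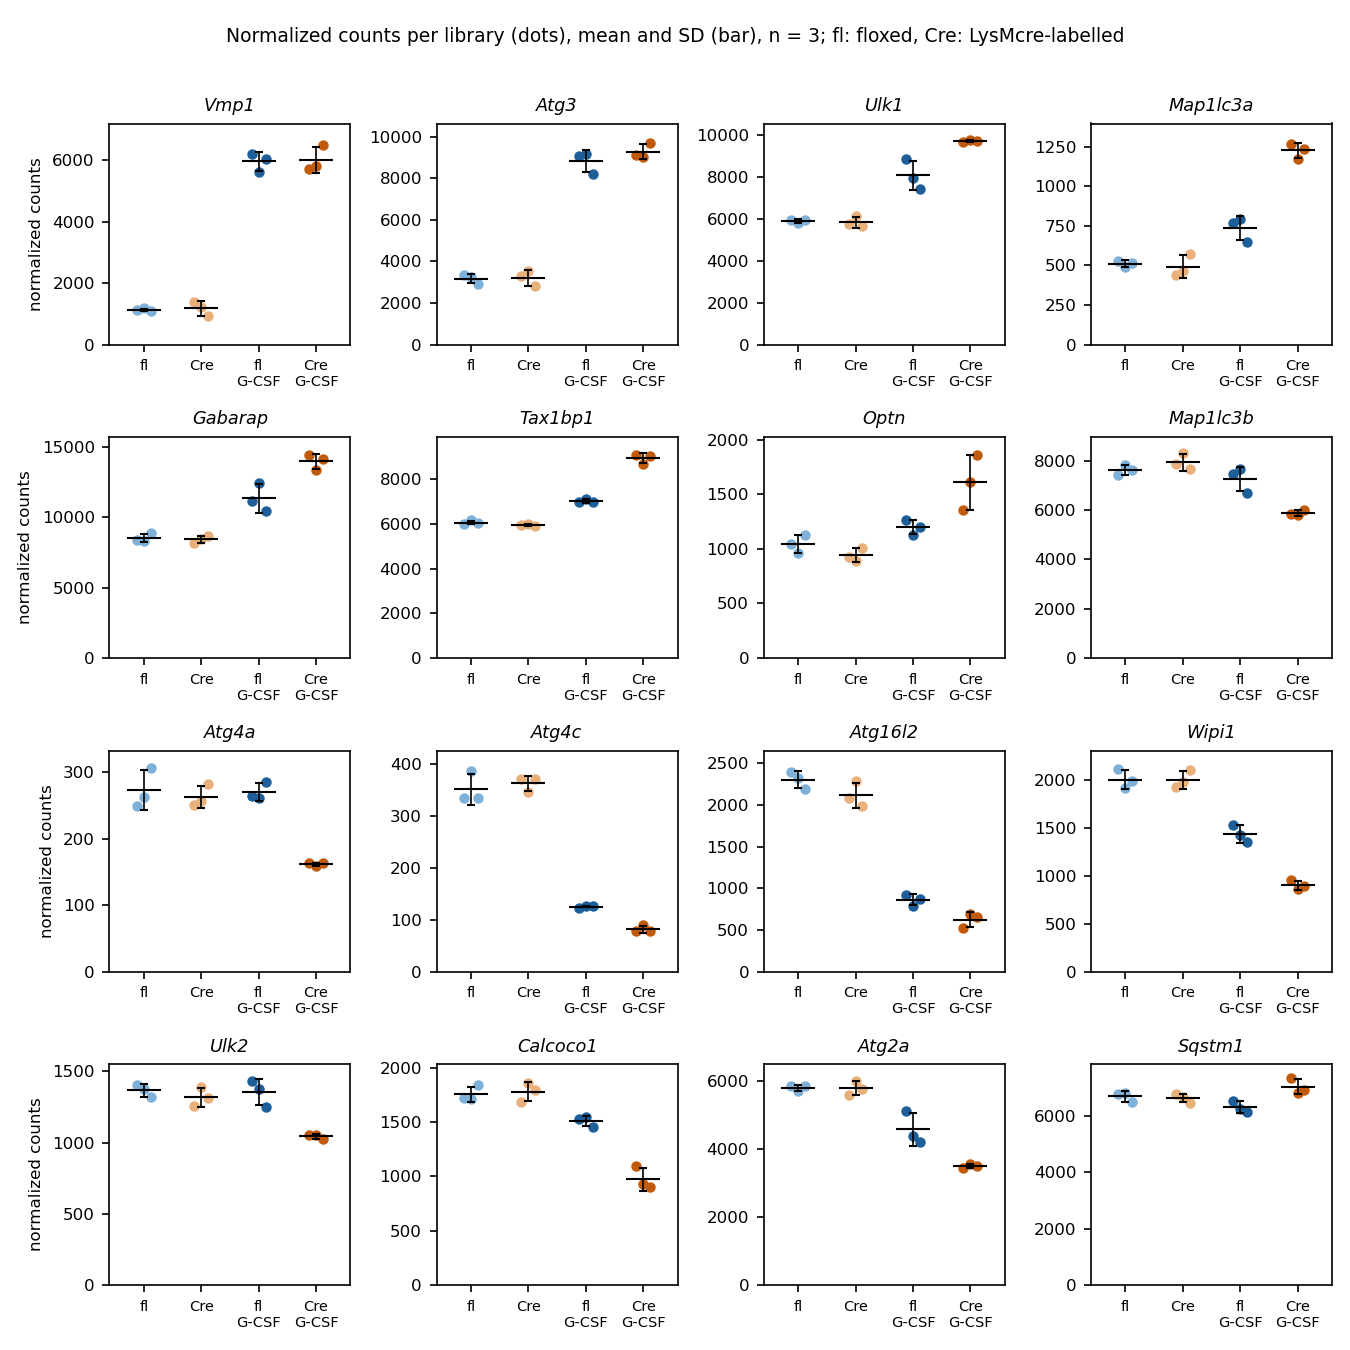
Normalized counts in each library (vertical axes, from 0) of 16 members in the 4 groups, with the mean and SD of 3 libraries. Vmp1 and Atg3 separate by G-CSF alone. Several others separate by genotype label with G-CSF, among them Wipi1, Map1lc3a, Atg4a, Calcoco1 and Tax1bp1. For Atg4a the floxed libraries with and without G-CSF overlap.

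With G-CSF present some members differed between the genotypes, led by Map1lc3a, Atg4a, Wipi1 and Calcoco1. Of 41 members 20 were called, 8 higher and 12 lower in LysMcre-labelled libraries, and 21 were not. This is 48.8%, beside 36.0% of all genes tested (17.1% higher and 18.9% lower). No member reached 2-fold, a mark that 5.96% of all genes passed, and the median absolute difference was 0.16 against 0.24. Map1lc3a was higher by 0.74 (SE 0.10, adjusted p = 2.31e-05), Optn by 0.41 (SE 0.10, adjusted p = 0.00352), Tax1bp1 by 0.35 (SE 0.04, adjusted p = 1.44e-05), Gabarap by 0.30 (SE 0.06, adjusted p = 0.00146) and Ulk1 by 0.27 (SE 0.06, adjusted p = 0.00217). Gabarap lost its call with quantile normalization (0.13). Each of these genes had all 3 LysMcre-labelled libraries above all 3 floxed ones, as did Becn1, Nbr1 and Sqstm1, whose differences were 0.13 to 0.16. Groups were also apart for Gabarapl1, Uvrag and Zfyve1, which were not called. Without G-CSF they were apart for Atg16l1, Tax1bp1, Becn1, Nbr1 and Atg12, all uncalled and lower in LysMcre-labelled libraries. How often genes in general separate this way was not counted.

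Lower in LysMcre-labelled libraries were Atg4a (-0.74, SE 0.09, adjusted p = 1.8e-05), Wipi1 (-0.67, SE 0.06, adjusted p = 9.93e-07), Calcoco1 (-0.64, SE 0.07, adjusted p = 4.38e-06), Atg4c (-0.61, SE 0.10, adjusted p = 0.000136) and Atg16l2 (-0.47, SE 0.09, adjusted p = 0.001). So were Atg5 (-0.38), Atg2a (-0.38) and Ulk2 (-0.37), and Pik3c3, Gabarapl2, Map1lc3b and Pik3r4, at -0.33 to -0.24. By role, 4 of 5 cargo receptors were higher and 1 lower, and 2 of 5 LC3 and GABARAP genes went each way. Of the proteases 2 of 4 were lower, as were 2 of 7 genes each of the conjugation and membrane groups, with none higher. These counts stand beside 17.1% higher and 18.9% lower among all genes, and no role was tested as a whole. Among the higher cargo receptors, Sqstm1 and Nbr1 lost their calls with quantile normalization or equal totals. The 2 fusion factors were not called (-0.02 and -0.07). Vmp1 (0.01, 95% interval -0.22 to 0.24) and Atg3 (0.07, -0.10 to 0.24), which rose most with G-CSF, were not called either.

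The share of these calls that were higher was 40%, and it was 23.5% with quantile normalization, 22.7% with equal totals and 29.4% with only the 2 compared groups in the fit. With quantile normalization or equal totals Sqstm1 (0.01 and 0.04), Becn1 (0.06 and 0.01) and Nbr1 (0.07 and 0.02) were not called. Single libraries also decided these calls: Sqstm1 without floxed G-CSF replicate 2 or 3 or LysMcre-labelled G-CSF replicate 1 (0.13 to 0.15), Nbr1 without floxed G-CSF replicate 2 or LysMcre-labelled G-CSF replicate 2 or 3 (0.11 to 0.13), and Becn1 (adjusted p = 0.0491 with all libraries) without any library other than floxed G-CSF replicate 1 (0.09 to 0.16). Pik3r4 lost its call without floxed G-CSF replicate 1 or 3 or LysMcre-labelled G-CSF replicate 1 or 2 (-0.25 to -0.21). Without floxed G-CSF replicate 2 the number of higher members was 5 in place of 8.

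**Figure D4:**
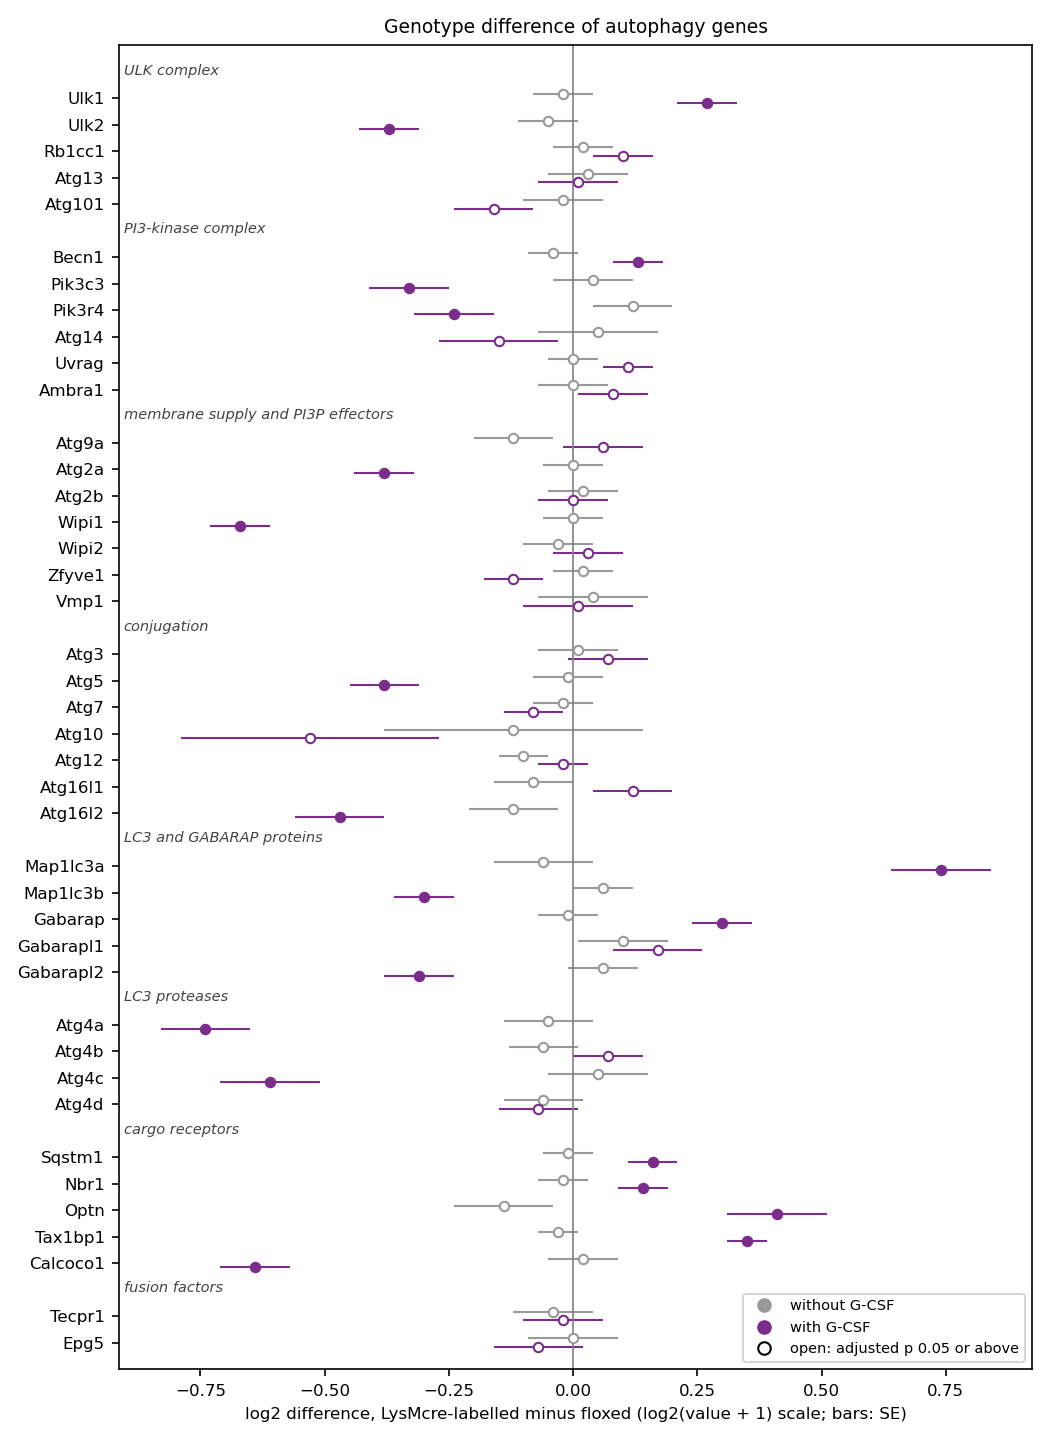
LysMcre-labelled minus floxed difference (log2 scale, horizontal axis; bars are SE) of each gene, by role, without and with G-CSF; filled points have adjusted p below 0.05. Without G-CSF all points lie between -0.14 and 0.12 and none is filled, and with G-CSF they spread from -0.74 for Atg4a to 0.74 for Map1lc3a.

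Whether G-CSF acted differently on the genotypes was asked with an interaction term, the G-CSF difference in LysMcre-labelled minus that in floxed libraries. It called 16 of 41 members, 5 higher and 11 lower, which is 39% beside 22.4% of all genes tested (10.9% higher and 11.5% lower). It shares its libraries with the comparisons above. The higher members were Map1lc3a (0.80, SE 0.14, adjusted p = 0.000534), Optn (0.56, SE 0.14, adjusted p = 0.00826), Tax1bp1 (0.38, SE 0.06, adjusted p = 0.00039), Gabarap (0.32) and Ulk1 (0.29). The largest negative values belonged to Atg4a (-0.69, SE 0.13, adjusted p = 0.00146), Wipi1 (-0.67, SE 0.09, adjusted p = 7.35e-05), Atg4c (-0.66, SE 0.14, adjusted p = 0.00249) and Calcoco1 (-0.66, SE 0.10, adjusted p = 0.000215). Gabarap and Ulk1 were not called with quantile normalization (0.09 and 0.14) or equal totals (0.15 and 0.12), and the share of calls that were higher went from 31.2% to 21.4% and 16.7%. Ulk1 also lost its call without floxed untreated replicate 1 or LysMcre-labelled untreated replicate 1 or 3 (0.27 to 0.28, adjusted p up to 0.051). Of the 14 members called with G-CSF in LysMcre-labelled libraries alone, Optn, Atg4a, Atg5, Gabarapl2, Map1lc3b, Pik3r4 and Ulk2 were called in the interaction. For Atg12, Ambra1, Atg13, Atg14, Atg10, Zfyve1 and Atg101 the interaction was not called, so a difference between genotypes was not shown. Atg16l2 (-0.35, adjusted p = 0.0748), Becn1, Nbr1 and Sqstm1 were called between genotypes with G-CSF but not in the interaction. A different G-CSF response of the genotypes was not shown for them either.

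These changes altered the make-up of gene families, taken as shares of the family's summed level per kb in each library. Atg16l1 made up 27.9% ± 0.593 (SD, n = 3) of the ATG16L family in floxed untreated and 28.5% ± 1.47 in LysMcre-labelled untreated libraries, then 54.8% ± 0.752 in floxed G-CSF and 64.7% ± 2.10 in LysMcre-labelled G-CSF libraries. The G-CSF libraries did not overlap with the untreated ones, nor the G-CSF genotypes with each other (53.97% to 55.43% against 62.30% to 66.02%). With the longest transcript as length the same shares were 43.2%, 43.8%, 70.4% and 78.2%, so that which paralog was the larger in untreated cells did not change but the level of the share did. Atg4c went from 18.7% ± 1.91 and 19.8% ± 0.915 of the ATG4 family to 6.67% ± 0.475 and 4.87% ± 0.441, and Atg4d from 36.7% ± 1.14 and 36.2% ± 0.840 to 50.4% ± 2.40 and 53.8% ± 0.640.

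Wipi1 held 67.5% ± 1.76 and 67.9% ± 1.87 of the WIPI pair in untreated libraries, 60.02% ± 0.237 in floxed G-CSF and 47.9% ± 2.503 in LysMcre-labelled G-CSF libraries. With the longest transcript as length these shares were 57.3%, 57.8%, 49.3% and 37.4%. Which WIPI paralog was the larger in floxed G-CSF libraries thus depended on the length used. Ulk1 held 79.9% ± 0.596 and 80.3% ± 0.455 of the ULK pair, then 84.6% ± 0.443 and 89.5% ± 0.156. In the LC3 and GABARAP family Gabarap went from 68.9% ± 0.681 and 68.1% ± 0.125 to 73.1% ± 0.532 and 75.8% ± 0.269. Map1lc3b went from 15.1% ± 0.575 and 15.7% ± 0.876 to 11.5% ± 0.407 and 7.84% ± 0.233, while Map1lc3a went from 6.45% ± 0.269 and 6.17% ± 0.738 to 7.40% ± 0.402 and 10.4% ± 0.0507. Map1lc3a thus stood above Map1lc3b per kb in LysMcre-labelled G-CSF libraries and below it in the other 3 groups; with the longest transcript as length it stayed below in all 4 (8.08% against 10.4% in that group). Atg2a held 91.8% ± 0.2001 and 91.6% ± 0.412 of the ATG2 pair, then 91.7% ± 1.17 and 89.5% ± 0.415.

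**Figure D5:**
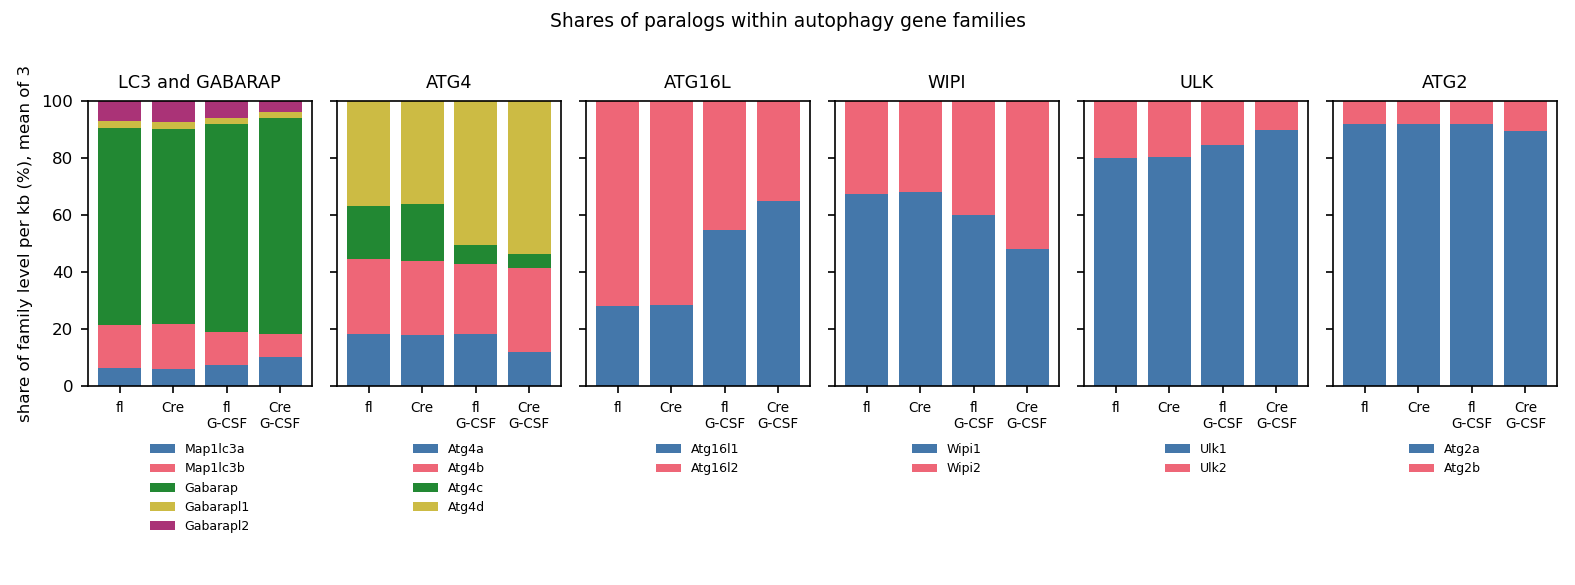
Share of each paralog in its family's summed level per kb (percent, vertical axis from 0 to 100; mean of 3 libraries) in the 4 groups, for 6 families. The untreated bars of the genotypes look alike, and the Atg16l1, Atg4d, Gabarap and Ulk1 shares are larger in both G-CSF groups.

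Genes around the machinery were counted in 5 lists chosen for their place in the pathway, and none of their members was called between genotypes without G-CSF. Their counts stand against 24.1% higher and 24.6% lower among all genes in floxed libraries, 31.1% and 31.6% in LysMcre-labelled libraries, and 17.1% and 18.9% between genotypes with G-CSF. No list was tested as a whole, and nothing particular to a list is read from its counts. Of 14 genes for fusion with the lysosome, 3 rose and 7 fell in floxed and 3 rose and 6 fell in LysMcre-labelled libraries, with medians of -0.16 and -0.14 against 0 over all genes. Lamp2, a lysosomal membrane protein, rose by 1.47 and 2.45, with means of 4801 and 4463 untreated and 13312 and 24347 with G-CSF. Snap29, a fusion SNARE, rose by 1.74 and 2.24, and its partner Stx17 fell (-0.41 and -1.18). Rab7, the GTPase of late endosomes, was called in the interaction (1.10, SE 0.08, adjusted p = 2.2e-07), with means of 12037 in floxed and 25329 in LysMcre-labelled G-CSF libraries. With G-CSF 5 of the 14 were higher and 3 lower in LysMcre-labelled libraries.

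Of 29 upstream kinases and nutrient sensors tested, 3 rose and 12 fell in floxed libraries, where 24.1% and 24.6% of all genes did. In LysMcre-labelled libraries 5 rose and 16 fell, beside 31.1% and 31.6% of all genes (medians -0.15 and -0.20 against 0). Rragd, a GTPase that recruits mTORC1 to the lysosome, fell (-2.94 and -3.27), from means of 288.6 and 276.8 to 36.9 and 28.2. Mlst8, a subunit of mTOR complexes, fell (-1.31 and -2.24), and Prkag2, a subunit of AMP-activated kinase, fell (-0.98 and -1.40). Fnip2, a partner of folliculin, rose by 1.57 and 2.47. Between genotypes with G-CSF, 5 were higher and 7 lower, among them Mlst8 (-1.04), Fnip2 (0.89), Ddit4 (0.77) and Flcn (0.54).

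Of 10 transcription regulators of autophagy genes, 3 rose and 3 fell in floxed libraries (24.1% and 24.6% of all genes) and 5 rose and 3 fell in LysMcre-labelled libraries (31.1% and 31.6%). Tfec, a low-level relative of TFEB, rose by 1.53 and 3.55 (SE 0.24 each), from means of 73.7 and 84.7 to 205.2 and 1000. Its interaction was 2.02 (SE 0.34, adjusted p = 0.000444). Tfeb, a main activator of lysosomal and autophagy genes, fell (-0.35 and -0.65), Foxo4 fell by 0.83 in LysMcre-labelled libraries, and Atf4, of the integrated stress response, rose by 0.53 and 0.66. Of 15 mitophagy and other selective receptors, 2 rose and 8 fell in floxed and 3 rose and 5 fell in LysMcre-labelled libraries. Ncoa4, the receptor for ferritin, fell (-1.73 and -2.18), Bnip3l, a mitochondrial receptor, fell (-0.76 and -1.34), and Fundc1, another, rose by 0.95 and 0.85. Pink1, the kinase that marks damaged mitochondria, was lower in LysMcre-labelled G-CSF libraries (-0.64, SE 0.07, adjusted p = 4.6e-06). Of 19 other accessory factors, 3 rose and 8 fell in floxed and 6 rose and 9 fell in LysMcre-labelled libraries. Trp53inp2 fell (-1.56 and -1.14), Trp53inp1 fell (-0.60 and -1.27), and Rubcnl, known as Pacer, rose by 0.59 and 1.05.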

How the data were processed

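RNA-seq was deposited for 12 libraries, 3 in each of 4 groups. The deposited values are a signal, gene counts that the authors divided by 1 factor per library; this was read from the values, of which 100.0% were whole reads within 0.01 read. Per the submitters' processing notes the build was mm10. Which aligner, counter, annotation or strandedness was used is not given in the sources used here; values of overlapping genes are therefore uncertain. Groups follow titles, except the LysMcre-labelled G-CSF libraries, placed by description. LysMcre-labelled untreated replicate 2 carries the number 3 in its description, and the title's number was used. Replicate pairs differed beyond sampling noise (chi-square per row 3.47 to 12.32), so all libraries were counted. Of the gene names, 17 read as calendar dates, and 2 columns without values were not used. GENCODE M21 matched 13541 symbols and not 394; lengths are the union of exons.

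Values were taken as log2(value + 1), and 20 rows with a mean under 10 were left out. Limma 3.58.1 (R 4.3.3) fitted the 12 libraries in 1 model with a trended prior and 8 residual degrees of freedom. Two-sided p-values were adjusted by Benjamini-Hochberg over the 13915 genes left, and 0.05 was the threshold. Such fold changes understate those of low genes. Of the 23 alternatives, edgeR 4.0.16 and DESeq2 1.42.0 used the recovered reads. The design had assumed values that are not whole reads, so limma stayed the main test. The scripts were tested on simulated data.

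Library values are given for up to 8 called members per comparison whose groups do not overlap, by absolute difference, for up to 8 called in the interaction and for the member with the highest level per length of each role. From each pathway list up to 4 called genes per comparison are named. The members, lists and motifs were chosen with earlier results of these data known.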

Additional observations from a re-analysis of the deposited data

Results flagged for a closer look

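The G-CSF difference of 16 members was not the same in the 2 genotype labels by the interaction test in limma, adjusted over 13915 genes. Values are the difference in LysMcre-labelled minus that in floxed libraries on the log2 scale. LC3 and GABARAP genes went both ways, with Map1lc3a at 0.80 and Gabarap at 0.32, and Gabarapl2 at -0.37 and Map1lc3b at -0.36. So did cargo receptors, with Optn at 0.56, Tax1bp1 at 0.38 and Calcoco1 at -0.66, and the ULK kinases, with Ulk1 at 0.29 and Ulk2 at -0.32. The other members had negative values: the proteases Atg4a at -0.69 and Atg4c at -0.66, the membrane genes Wipi1 at -0.67 and Atg2a at -0.37, the conjugation gene Atg5 at -0.37, and the lipid kinase genes Pik3c3 at -0.37 and Pik3r4 at -0.36.

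Adjusted p-values ran from 7.35e-05 for Wipi1 to 0.035 for Pik3c3. Pik3c3 lost its call without floxed untreated replicate 1, 2 or 3, LysMcre-labelled untreated replicate 2 or 3, floxed G-CSF replicate 1 or 2, or LysMcre-labelled G-CSF replicate 2, with values of -0.38 to -0.26. Pik3r4 lost its call without floxed untreated replicate 1 or 2, LysMcre-labelled untreated replicate 3, floxed G-CSF replicate 1 or 3, or LysMcre-labelled G-CSF replicate 1 or 2, with values of -0.36 to -0.30. Groups of 3 were not examined for outlying libraries.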

How the results depend on the processing

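The number of members called stayed within 1.5 times under all 23 alternatives (22 for the interaction, which always uses all groups). Leaving out each library in turn gave 0 members for genotype without G-CSF, 17 to 19 for genotype with G-CSF, 17 to 22 for G-CSF in floxed, 31 to 35 for G-CSF in LysMcre-labelled libraries and 13 to 16 for the interaction. Whether replicate numbers pair the libraries was not settled. Same-numbered libraries of different groups correlated at -0.178 to 0.321 (median 0.018, 18 pairs) and others at -0.282 to 0.196. As a hint from the data, 8 of 12 libraries correlated best with their own number, with no chance level worked out. Libraries that matched each other best were counted from both ends. Among these pairs, floxed and LysMcre-labelled untreated replicate 3 (0.177) join different genotypes. Between untreated and G-CSF libraries, same-numbered pairs stood at 0.321, 0.199 and 0.061 in floxed and 0.214, -0.032 and 0.03 in LysMcre-labelled libraries. Different-numbered pairs of these groups stood at -0.282 to 0.152 and -0.179 to 0.163. With the replicate block the members called numbered 0, 18, 21, 36 and 16 in the same order; the block ended the calls of Becn1 and Nbr1 between genotypes with G-CSF (adjusted p = 0.0805 and 0.0506) and added that of Gabarapl1 with G-CSF in LysMcre-labelled libraries.

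Scaling turned the sign of 7 members for G-CSF in LysMcre-labelled libraries, and 5 of them were then called lower. This counts only members called in the fit reported or under the scaling. Sign changes of members called in neither were not counted. With equal totals Rb1cc1 turned to -0.02 and Ambra1 to -0.04, neither called, while Atg12 (-0.12, adjusted p = 0.0434), Sqstm1 (-0.18, adjusted p = 0.00566), Atg4b (-0.21, adjusted p = 0.00566), Wipi2 (-0.21, adjusted p = 0.00339) and Epg5 (-0.22, adjusted p = 0.0384) were called lower. Quantile normalization also called Sqstm1 lower (-0.23, adjusted p = 0.00145). With equal totals the median of all genes was -0.26 there (0 in the fit reported) and 0.04, -0.13, -0.09 and -0.18 (in place of -0.01, -0.01, 0 and -0.01) for the genotype difference without G-CSF, the same with it, the floxed G-CSF difference and the interaction. Members higher between genotypes with G-CSF numbered 8 and became 4 with quantile normalization and 5 with equal totals or with only the compared groups; members lower with G-CSF in floxed libraries went from 10 to 18, members higher in LysMcre-labelled libraries from 14 to 9, both with equal totals, and higher members of the interaction from 5 to 3 with either scaling. DESeq2 did not call Atg13, Atg14, Atg10 and Atg12 with G-CSF in LysMcre-labelled libraries (adjusted p = 0.0566, 0.0655, 0.0595 and 0.0557). The cause of these changes was not tested. Depth limits Atg10 most, at 14.0 to 39.4 normalized counts per library.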
